A study of Arabidopsis thaliana with 6 samples.

Results

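The aldehyde dehydrogenase (ALDH) genes of Arabidopsis thaliana were examined in rosettes before and after light submergence. A list of 10 ALDH genes was searched by symbol in the array's annotation, and 6 of them (ALDH2C4, ALDH3F1, ALDH6B2, ALDH10A8, ALDH11A3 and ALDH22A1) had a probe set assigned to that gene alone, out of 13286 genes with a named probe set in the series. ALDH2B4, ALDH2B7, ALDH3H1 and ALDH3I1 had none under this rule. Transcripts were measured on 6 ATH1 arrays, which carry short oligonucleotides grouped into probe sets. The arrays of 48-h light submergence (n = 3) and of the untreated control harvested at 0 h under normoxia (n = 3) both came from 4-week-old Columbia plants without any transgene or mutation. Each replicate was collected from 3 plants, and the labels call the submerged plants hypoxic. The submerged plants were harvested 48 h later than the controls. The study's methods give a lower light intensity for submergence than for growth, whereas the labels speak of the usual growth conditions, so submergence, age and any difference in light cannot be told apart.

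ALDH enzymes oxidise aldehydes to the corresponding acids with NAD+ or NADP+ as the acceptor. Plants hold many families of them, numbered by sequence, which act in the cytosol, plastids, mitochondria and peroxisomes. Some sit at fixed steps of amino acid breakdown or of carbon metabolism, others remove reactive aldehydes that arise from lipid peroxidation, and the mitochondrial family-2 enzymes act on acetaldehyde, the intermediate of ethanol fermentation.

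The deposited values are log2 signals, and the trimmed means of the arrays on the linear scale were nearly equal, at 495.8 to 496.3 after submergence and 495.2 to 495.4 in the controls. Background was set at the 40th percentile of each array, a log2 signal of 5.55 to 5.84 on the submerged arrays and of 6.17 to 6.39 on the control arrays. Correlations between arrays were 0.921 among submerged arrays, 0.909 to 0.924 among controls and 0.732 to 0.806 between the conditions. Of 7 leaf mesophyll markers 1 had a named probe set, RCA, which encodes Rubisco activase of leaf chloroplasts. It had log2 signals of 13.66 to 14.30 on submerged arrays and 14.90 to 15.29 on control arrays, a mean difference of -1.11. Of 5 epidermis and guard cell markers 1 had a named probe set, FAMA, with a mean difference of -0.56 and overlapping signals. Of 4 root markers 2 had a named probe set. EXPA7 was below background on all 6 arrays and PYK10 on 5 of them. Tissue makeup was not tested further, and in such bulk samples fewer cells of a type and less RNA per cell cannot be told apart.

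After 48-h light submergence, ALDH6B2 rose, ALDH3F1 and ALDH22A1 fell, and ALDH2C4, ALDH10A8 and ALDH11A3 did not pass the test. To pass, a probe set needed at least a 1.5-fold difference and a limma p under 0.05 once adjusted across the 22746 probe sets. Of all probe sets 42.6% passed, 18.3% being higher and 24.3% lower, and of the genes 38.3%, so 3 of 6 ALDH genes is close to the general share. On all 6 arrays 5 of the ALDH genes were above background, all but ALDH3F1. Of these 5, only ALDH6B2 and ALDH22A1 passed, against 58.7% of all probe sets of that kind. The 6 genes had a median log2 fold change of -0.49, against -0.26 for all probe sets. Log2 signals did not overlap between the conditions for 4 of the 6 genes (ALDH6B2, ALDH3F1, ALDH22A1 and ALDH10A8), against 54.7% of all probe sets. Without submergence replicate 3, 5 of the 6 genes were called, ALDH10A8 and ALDH11A3 being added as lower. The individual genes differed far more than these counts show, and they are described below by the role of the enzyme.

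**Figure D1:**
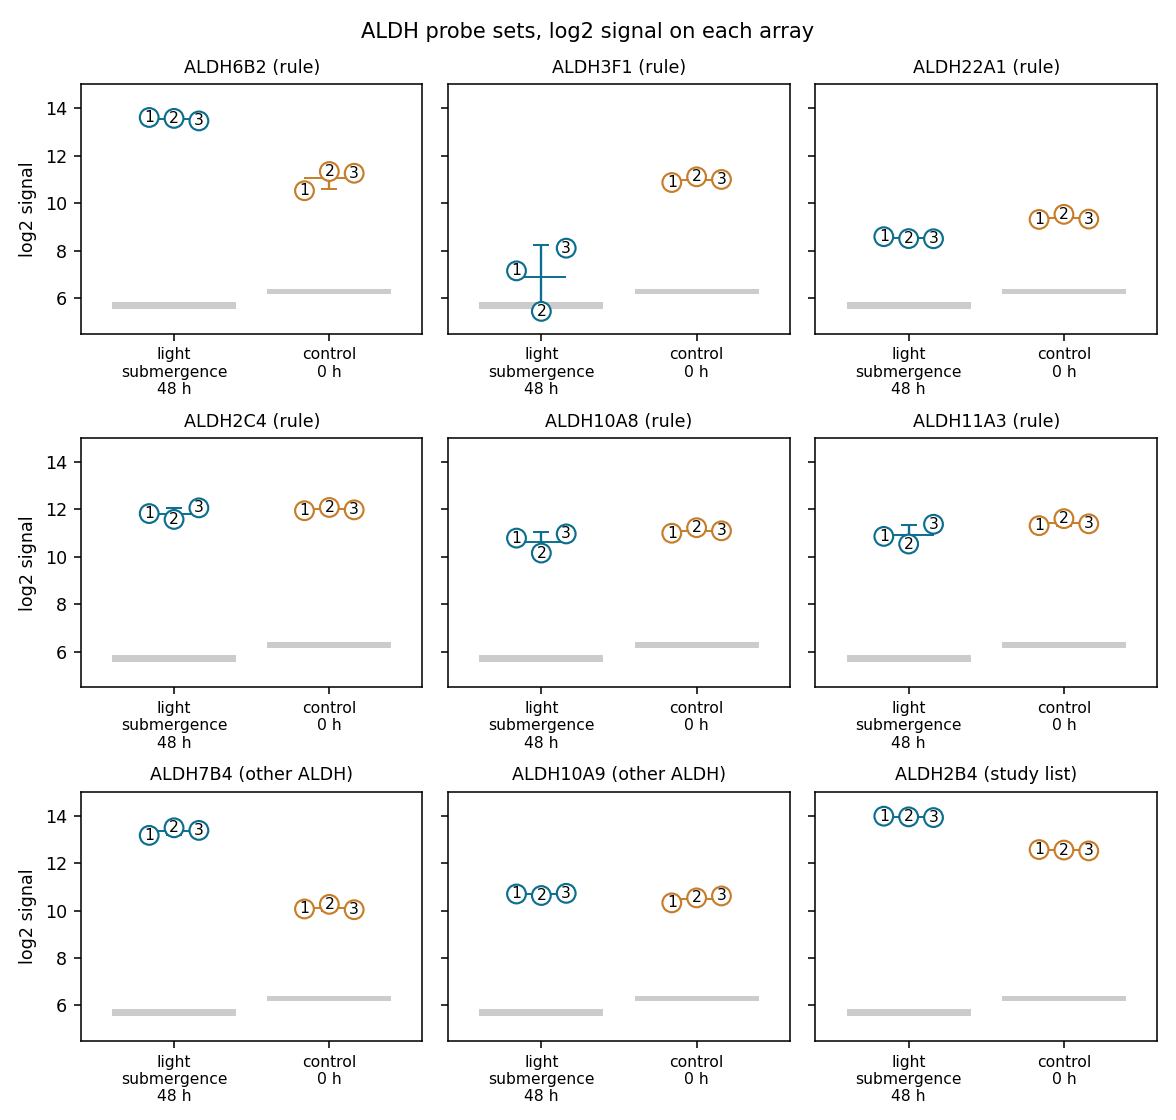
Log2 signal (y axis) of 9 ALDH probe sets on the submerged arrays (left in each panel) and the control arrays (right), with the replicate number in each circle, the mean as a horizontal line and the SD as a bar; grey bands span the background of the 3 arrays. Panels marked "rule" hold the 6 genes found by symbol, "other ALDH" 2 further family members, and "study list" ALDH2B4. ALDH6B2, ALDH7B4 and ALDH2B4 lay higher on every submerged array, ALDH3F1 and ALDH22A1 lower. ALDH10A9 also lay higher on each, by as little as 0.02, and ALDH10A8 lower, by as little as 0.03, and neither passed the test.

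ALDH6B2 is the mitochondrial methylmalonate-semialdehyde dehydrogenase, the last ALDH step of valine breakdown. Its log2 signals were 13.61, 13.57 and 13.46 on the submerged arrays, against 10.52, 11.33 and 11.26 on the control arrays. The lowest submerged array lay 2.13 above the highest control, and the spread among controls came from replicate 1. ALDH6B2 thus rose 5.70-fold, or by 2.51 ± 0.22 (standard error) on the log2 scale, with a limma adjusted p = 7.11e-06. In the order of all 22746 probe sets its increase ranked 1248th from the top.

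ALDH7B4, not among the 10 listed genes, belongs to the antiquitin family, whose members oxidise the semialdehyde of lysine breakdown and are known in plants as stress-inducible. It gave log2 signals of 13.17, 13.49 and 13.38 on submerged arrays and 10.07, 10.26 and 10.03 on controls. The conditions were separated by 2.91 on the log2 scale. The increase of ALDH7B4 was 9.35-fold, or 3.22 ± 0.15 (standard error) on the log2 scale, with a limma adjusted p = 1.61e-07.

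Other transcripts of branched-chain amino acid breakdown were compared with ALDH6B2. Of 20 listed genes 11 had a named probe set. Among them 7 genes rose and 1 fell, while 3 stayed below the threshold, and the median log2 fold change was 1.15. Across all 13286 genes the median was -0.29, and 15.7% rose and 22.6% fell. IVD (isovaleryl-CoA dehydrogenase) rose 16.1-fold and MCCA (a subunit of methylcrotonyl-CoA carboxylase) 13.5-fold, both on the leucine branch. ETFQO, which passes electrons from IVD and other dehydrogenases to ubiquinone, rose 3.13-fold. The others that rose were MCCB, At2g26800, ETFA and D2HGDH. D2HGDH and the electron carriers ETFQO and ETFA are not confined to branched-chain breakdown, and the count of 7 includes them. ETFB, listed beside ETFA, did not pass and had overlapping signals, at a log2 fold change of 0.05 (limma adjusted p = 0.900). At5g09300 (BCDHE1A2) did not pass either, at a log2 fold change of -1.30 (limma adjusted p = 0.0601). Only 1 of its submerged arrays was above background. The 2 measured genes whose enzymes act just before ALDH6B2 on the valine branch did not rise. At4g31810, for a mitochondrial 3-hydroxyisobutyryl-CoA hydrolase, fell 2.12-fold (limma adjusted p = 0.00762), but missed the threshold after quantile normalization (limma adjusted p = 0.0562). At4g20930, for 3-hydroxyisobutyrate dehydrogenase, which makes the substrate of ALDH6B2, had log2 signals of 7.77, 7.53 and 7.81 on submerged arrays and 8.11, 7.40 and 7.97 on controls. These overlapped, and its log2 fold change was -0.12 (95% confidence interval -0.69 to 0.45). This gene was named after its values had been seen.

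ALDH3F1 belongs to family 3, which oxidises a range of medium- and long-chain aldehydes, and is its cytosolic member of the F group. Its log2 signals were 7.14, 5.43 and 8.10 on the submerged arrays, against 10.87, 11.11 and 11.00 on the control arrays. Submergence replicate 2 was below background, and the highest submerged array was still 2.77 below the lowest control. ALDH3F1 fell 17.1-fold, a log2 fold change of -4.10 ± 0.52 (standard error) with a limma adjusted p = 9.43e-05, and ranked 526th from the bottom of all probe sets. The SD among submerged arrays was 1.35, against 0.12 among controls. For comparison, the median SD of the 2077 probe sets with a mean within 0.5 of it on the submerged arrays was 0.35. Without submergence replicate 2 the log2 fold change was -3.37, and without replicate 3 it was -4.70, so the size of the decrease was less certain than its direction.

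ALDH22A1 forms a family of its own among plant ALDHs, whose substrates are poorly known. It gave 8.58, 8.50 and 8.49 on submerged arrays and 9.31, 9.53 and 9.32 on controls. The submerged arrays had the smallest SD of the 6 genes, 0.05, and all lay below the controls. ALDH22A1 fell 1.82-fold, a log2 fold change of -0.86 ± 0.15 (standard error) with a limma adjusted p = 0.00104. Relative to the median of all probe sets the difference was -0.60.

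Among the other genes that act on reactive aldehydes, 3 of 15 had a named probe set. Of these 2 rose and 1 fell, where 38.3% of all genes passed in either direction, and their median log2 fold change was 1.24. AOR, a chloroplast reductase of unsaturated carbonyls, had log2 signals of 7.89, 7.14 and 7.89 on submerged arrays and 11.13, 11.29 and 11.60 on controls, and fell 13.0-fold (limma adjusted p = 8.26e-07). AER, a reductase of alkenals, rose 2.37-fold (adjusted p = 0.000382). At3g04000, for a chloroplast aldehyde reductase, was below background on all controls and was at least 2.1-fold higher after submergence, a bound taken against the background level of the control arrays. No gene of the 4 listed aldehyde oxidases had a named probe set.

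**Figure D2:**
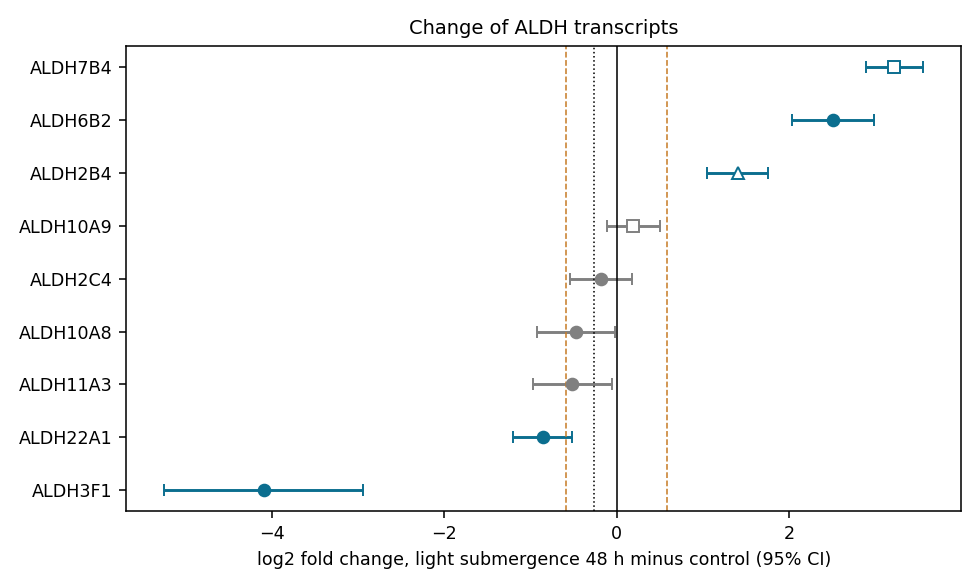
Log2 fold change of light submergence minus control (x axis) with its 95% confidence interval for 9 ALDH genes (y axis); filled circles are the 6 genes found by symbol, open squares 2 other family members, the open triangle ALDH2B4, and grey marks did not pass the test. Dashed lines mark 1.5-fold and the dotted line the median of all probe sets, -0.26; the values run from -4.10 for ALDH3F1 to 3.22 for ALDH7B4.

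ALDH2C4, also known as REF1, is the cytosolic enzyme that oxidises sinapaldehyde and coniferaldehyde to sinapic and ferulic acid. It was measured at 11.82, 11.58 and 12.06 on submerged arrays and at 11.94, 12.08 and 11.98 on controls. Submergence replicate 3 lay within the range of the controls and the other submerged arrays below it. The difference was -0.18 on the log2 scale (95% confidence interval -0.54 to 0.18, limma adjusted p = 0.416), so an increase or decrease of 1.5-fold or more lay outside the interval. Of 21 phenylpropanoid and sinapate genes 2 had a named probe set, and neither passed. HCT, an acyltransferase of monolignol synthesis, differed by 0.30 on the log2 scale (limma adjusted p = 0.123), and CCR2 was below background on all 6 arrays.

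ALDH2B4, a mitochondrial enzyme that oxidises the acetaldehyde made by pyruvate decarboxylase, is on the list of genes but has no symbol in the annotation. The study's own list of upregulated genes pairs it with a probe set, so it had been selected for its increase and is left out of the counts above. Its log2 signals were 13.98, 13.95 and 13.92 on submerged arrays and 12.57, 12.55 and 12.51 on controls, 2.65-fold higher. Arrays of a condition differed by less than 0.1 (SD 0.03 in each condition).

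Of 10 genes of ethanol fermentation and acetaldehyde use, 3 had a named probe set. PDC2, a pyruvate decarboxylase gene, had log2 signals of 11.47, 10.93 and 11.44 on submerged arrays, which spanned the controls at 11.11, 11.12 and 11.12. ACS, for the acetyl-CoA synthetase that takes up the acetate made by ALDH, had a log2 fold change of 0.23 (95% confidence interval -0.11 to 0.57). Neither passed the test, with adjusted p-values of 0.473 and 0.259 from limma. The lactate dehydrogenase gene At4g17260 fell 1.95-fold (limma adjusted p = 0.00215). ADH1 and PDC1 had no named probe set.

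ALDH11A3 is the cytosolic non-phosphorylating glyceraldehyde-3-phosphate dehydrogenase, which makes NADPH and bypasses the phosphorylating enzyme of glycolysis. Its log2 signals were 10.86, 10.54 and 11.37 on submerged arrays and 11.31, 11.61 and 11.39 on controls. Replicate 3 of submergence fell among the controls and the others below them. The difference of -0.51 ± 0.21 (standard error) on the log2 scale did not pass, with a limma adjusted p = 0.0676, and was -0.26 relative to the median of all probe sets. It passed after quantile normalization, at -0.60 (adjusted p = 0.0457), and without submergence replicate 3, at -0.74 (adjusted p = 0.00517). It was smaller without submergence replicate 2, at -0.32 (adjusted p = 0.192), and without control replicate 2, at -0.43 (adjusted p = 0.200).

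The 3 measured genes of the list of phosphorylating glyceraldehyde-3-phosphate dehydrogenases and triose phosphate enzymes, of 12 listed, all fell, where 22.6% of all genes did, and the median of the list was -1.25 on the log2 scale. GAPC2, the cytosolic phosphorylating enzyme, fell 1.53-fold (limma adjusted p = 0.0209). It did not pass after quantile normalization, nor on leaving out control replicate 2, control replicate 3, submergence replicate 1 or submergence replicate 2 (log2 fold changes of -0.63 to -0.37 in these). At1g56190, for a phosphoglycerate kinase, fell 3.08-fold and TPI, for the cytosolic triose phosphate isomerase, 2.38-fold.

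ALDH10A8 and ALDH10A9 encode the plastid and the peroxisomal aminoaldehyde dehydrogenase, enzymes of the betaine aldehyde dehydrogenase family that also oxidise products of polyamine breakdown. ALDH10A8 had log2 signals of 10.79, 10.16 and 10.96 on submerged arrays and 10.99, 11.23 and 11.10 on controls. The highest submerged array lay only 0.03 below the lowest control, and the log2 fold change of -0.47 did not pass, with a standard error of 0.20 and a limma adjusted p = 0.0887. Without submergence replicate 3 it was -0.63 and passed (limma adjusted p = 0.0263), and without replicate 2 it was -0.23 (limma adjusted p = 0.245). ALDH10A9 gave 10.70, 10.63 and 10.73 on submerged arrays and 10.32, 10.53 and 10.62 on controls. All its submerged arrays lay above the controls, by as little as 0.02, and the difference of 0.19 did not pass (limma adjusted p = 0.292).

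The log2 difference of ALDH10A8 minus ALDH10A9 within each array was 0.09, -0.48 and 0.24 on submerged arrays and 0.67, 0.69 and 0.48 on controls. These ranges did not overlap, and the mean difference was lower by 0.66 on the submerged arrays, at -0.05 ± 0.38 (SD, n = 3), against 0.61 ± 0.12 on controls (SD, n = 3). The two-sided exact permutation test gave p = 0.1, the smallest that 3 against 3 arrays allow. ALDH10A8 and ALDH10A9 are the only pair of one family measured among the ALDH genes with an annotated symbol.

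Of 9 amine and polyamine oxidase genes, whose products include the aminoaldehydes, 3 had a named probe set. CuAO1, a copper amine oxidase gene, rose 5.43-fold (limma adjusted p = 2.87e-06). At1g31710, another copper amine oxidase gene, had log2 signals of 3.47, 5.50 and 6.59 on submerged arrays, 1 of them above background, and 8.94, 8.87 and 9.33 on controls. At1g31710 fell (limma adjusted p = 0.000639), and its highest submerged array lay 2.28 below the lowest control. This gene had 2 named probe sets, and only the brighter is described. The fitted log2 fold change of -3.86 rests on 2 submerged arrays below background and gives no exact size. Leaving out single submerged arrays gave -4.56 without replicate 3 and -3.01 without replicate 1. Of 12 genes of GABA and proline metabolism 2 had a named probe set, and both rose, where 15.7% of all genes did. At5g38710, a proline dehydrogenase gene, had log2 signals of 11.36, 11.99 and 11.27 on submerged arrays, against 6.74, 6.75 and 6.08 on controls. It rose, at a fitted 32.4-fold. Its control replicate 3 was below background, so this fold gives no exact size. DELTA-OAT, for ornithine aminotransferase, rose 5.56-fold. Both enzymes make the semialdehyde that ALDH12A1 oxidises, and ALDH12A1 had no named probe set.

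**Figure D3:**
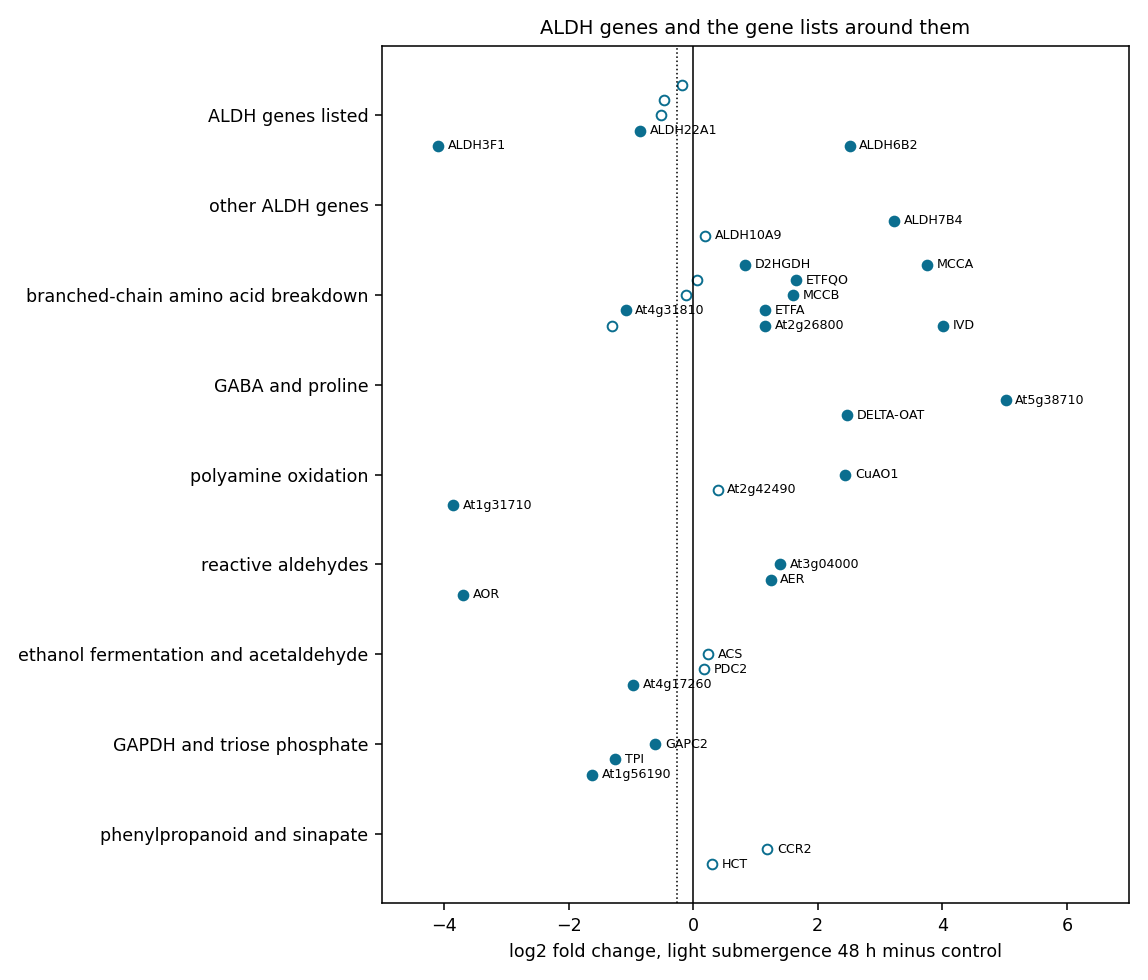
Log2 fold change of light submergence minus control (x axis) for the ALDH genes and the genes of each list around them (y axis, points staggered); filled points passed the test and open points did not, and the dotted line marks the median of all probe sets. Of the 29 list genes other than the 6 found by symbol, 13 rose and 7 fell, with IVD, MCCA and At5g38710 farthest to the right. Of all genes, 15.7% rose and 22.6% fell, and of probe sets above background on all 6 arrays 58.7% passed in either direction. The point of CCR2 rests on signals below background.

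The submerged arrays did not behave alike for the ALDH genes. Replicate 2 was the lowest submerged array and replicate 3 the highest for ALDH3F1, ALDH2C4, ALDH10A8 and ALDH11A3, 4 of the 6 genes. The share of all probe sets with this order was not determined, so the count is not particular to these genes. For ALDH3F1 they deviated by -1.46 and 1.21 from the mean of the condition, and for ALDH11A3 by -0.39 and 0.45. ALDH6B2 and ALDH22A1 stayed within 0.1 of their means on all submerged arrays. The median deviation of all probe sets was -0.05 on replicate 2 and 0.04 on replicate 3. Replicate 3 correlated with the controls at 0.783 to 0.806 and replicate 2 at 0.732 to 0.752. The part of this difference between the arrays in the results was not tested beyond leaving out each array.

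**Figure D4:**
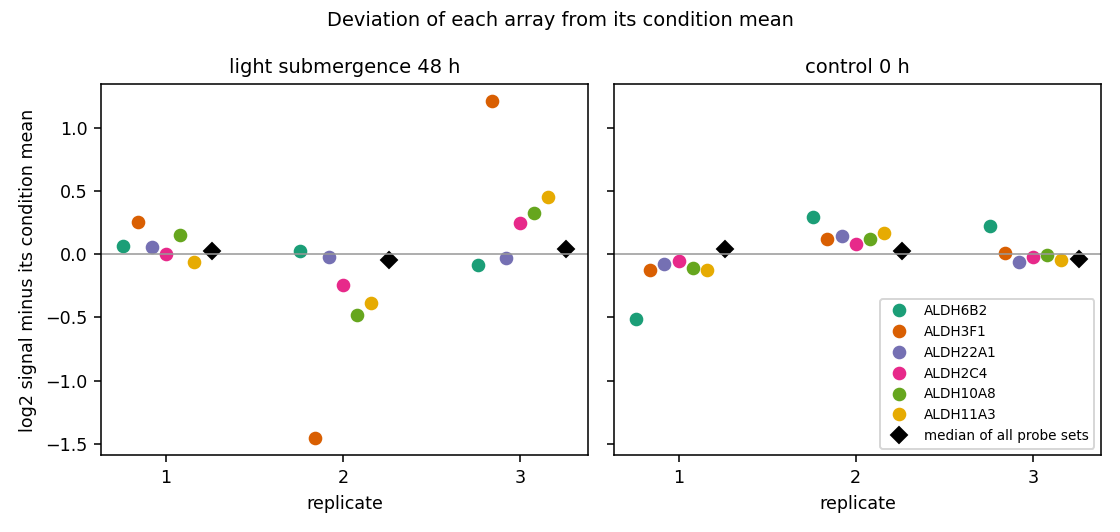
Log2 signal minus the mean of its condition (y axis) for the 6 ALDH genes (circles) and the median of all probe sets (black diamonds) on each replicate (x axis), submerged arrays left and control arrays right. ALDH3F1 spans -1.46 to 1.21 on the submerged arrays, and ALDH6B2 is lowest on control replicate 1, at -0.52.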

How the data were processed

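Total RNA was hybridised to ATH1 arrays, and the authors collected the data with MAS5, which the methods and the submitters' processing notes name. Each deposited column holds log2 signals, for 22746 probe sets. Samples were grouped by the titles in the deposited labels. The methods name rosettes and the RNeasy kit, the labels leaves and Trizol. Probe sets were named through the platform annotation, and loci, symbols and older names through the TAIR10.1 gene table. A single gene was given for 13513 probe sets, several for 503 and none for 8730; 13436 matched a locus, which made 13286 genes. Where a gene had more than 1 probe set, the brightest on average stood for it. No probe, protein or promoter sequences were used here.

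Conditions were compared with limma 3.58.1 in R 4.3.3 (moderated variances with a trend, no block), on all probe sets, with Benjamini-Hochberg adjustment, and checked on simulated data. The replicates are separate pools of plants, and the number of arrays limits the precision. Where a changed gene was above background on no array of a condition, its fold was bounded by the background level. The ALDH genes and the lists were chosen with earlier results of these data known. All measured ALDH genes were named, and of each other list up to 3 called genes in each direction by size of change, above background on at least 2 arrays of a condition, with PDC, ADH1 and ACS genes in any case. HCT, CCR2 and At4g20930 were chosen outside this rule, with their values in view, and so were MCCB, At2g26800, ETFA, ETFB, D2HGDH, At5g09300 and At2g42490. The alternatives tried were a replicate block, leaving out each array, quantile normalization, scaling to the 75th percentile, adding 32 to the signals, keeping probe sets that passed background on 3 or more arrays, no variance trend, and other fold minimums and background levels. Plots used Python 3.11.15 and matplotlib 3.10.9.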

Additional observations from a re-analysis of the deposited data

How the results depend on the processing

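ALDH6B2, ALDH3F1 and ALDH22A1 kept their direction and their call under all 12 alternative fits, and ALDH2C4 stayed below the threshold in each. The number of ALDH genes called was 3 to 5 when 1 array was left out, with 5 reached only without submergence replicate 3, and it was 4 after quantile normalization, 2 with a 2-fold minimum and 3 otherwise. Over all probe sets 9684 were called, and 8788 to 9575 when 1 array was left out. After quantile normalization 9351 were called (4559 higher and 4792 lower), and the median of all probe sets was 0.02 there and -0.26 as deposited. The lists around the ALDH genes held 20 calls, and 18 to 21 under the alternatives. The within-array difference of ALDH10A8 and ALDH10A9 was lower after submergence in every alternative run, with changes of -0.81 to -0.45 when 1 array was left out. Of the 6 ALDH genes, 5 lay above background on all arrays, 5 with a 50th and 6 with a 30th percentile as background. Of 324 combinations of a gene and an alternative, 313 kept direction and call, 6 lost the call, 3 gained it and 2 changed sign. The sign changes were those of At4g20930, at 0.14 after quantile normalization and, when 1 array was left out, -0.34 to 0.018 (the highest without control replicate 1); the cause was not tested.

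The replicate numbers are shared by the conditions, but deviations of same-numbered arrays correlated at only 0.03, -0.01 and 0.06, and not every array correlated best with its own number. With a replicate block 9339 probe sets and the same number of ALDH genes, 3, were called. No call changed among the 27 genes for which the alternatives were run. These leave out HCT, CCR2, MCCB, At2g26800, ETFA, ETFB, D2HGDH, At5g09300, At2g42490 and the tissue markers. No signal below background can be ordered. This limits ALDH3F1 on submergence replicate 2 and At1g31710 on submergence replicates 1 and 2. It also limits At5g09300 on submergence replicates 2 and 3 and At5g38710 on control replicate 3.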
